A study of Mus musculus with 6 samples.

Results

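Genes of motile cilia and of the programme that builds many cilia on a single cell were followed in cortical cells of mouse embryos whose mothers had received phenobarbital or saline. Members were the probes whose accession maps in RefSeq to a symbol starting Dnah, Dnai, Rsph, Spag or Cfap followed by a digit, or to 1 of a named set (Foxj1, Rfx2, Rfx3, Mcidas, Gmnc, Ccno, Myb, Hydin, Ccdc39, Ccdc40, Meig1, Tekt1, Tekt2, Tekt4, Drc1 and Zmynd10). Of 84 RefSeq genes that fit, 71 had a probe on the array, with 97 probes among 55681, out of 20145 genes that could be named in all. Of these 71 genes, 53 passed the filter on dim probes and were tested.

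The exposed group came from C57BL/6N mothers given phenobarbital at 80 mg/kg, from an 8 mg/mL solution, as paired intraperitoneal injections 6 h apart on embryonic days 10 to 11. The control group came from C57BL/6N mothers given saline on the same schedule. Phenobarbital is a barbiturate that strengthens currents through GABA-A receptors. In both groups the embryonic cortex, taken on day 12 by the protocol (labelled E12.5), was dissociated and plated on poly-L-ornithine and fibronectin, and RNA was isolated 4 h later. Each group holds 3 single-colour Agilent arrays, and nothing in the labels tells whether replicates came from separate litters, so the p-values below speak of the variation among these 6 samples, some or all of which could be technical. The labels call the cells neural progenitors from neocortex, and all 8 radial glia markers examined (Pax6, Sox2, Nes, Hes5, Emx1, Emx2, Fabp7 and Vim) were well above background on all arrays.

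Motile cilia beat by means of dynein arms that slide the microtubule doublets of the axoneme, held in register by radial spokes, a central pair of microtubules and the nexin-dynein regulatory complex. In multiciliated cells the geminin-related factor Gmnc and its relative Mcidas act high in the programme, Ccno and Myb help to produce basal bodies and to commit the cell, and Foxj1 with the RFX factors switches on the genes of the axoneme. In the embryonic brain these genes are known from the roof plate, the choroid plexus epithelium and, later, the ependyma, while the cortical progenitor itself bears a single primary cilium.

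Gmnc, Foxj1, Ccno and Rfx2, regulators of this programme, were higher after phenobarbital, as were Cfap52, Meig1 and Rsph1 of the axoneme, while Mcidas was lower. Of the 53 tested members 13 rose, 4 fell and 36 did not pass (limma, adjusted p below 0.05 over all names tested). That is 24.5% of the members higher and 7.55% lower, against 6.24% and 10.5% of all 25304 names tested (16.7% in either direction). The groups did not overlap for 17 members that were higher and 10 that were lower (32.1% and 18.9%), against 11.7% and 32.4% of all names (44.1% in either direction). The median log2 fold change of the members was 0.09, against -0.16 over all names, so that the members' median lay 0.25 above the rest. Of the 53, 47 were above background on all 6 arrays, and 12 of these rose and 4 fell. The other 6 passed through the phenobarbital arrays alone, so for these the filter itself favours a difference.

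The counts depended on single arrays. Without phenobarbital replicate 1, 2 or 3 the members called higher numbered 2 each time (3.77%), near the 2.74%, 2.63% and 2.85% of all names called higher there. Without control replicate 1 they numbered 4 (7.55%, against 2.53% of all names), and without control replicate 3 they numbered 7 (13.2%, against 4.14%). Without control replicate 2 they numbered 16 (30.2%, against 7.42%), of which Meig1, Cfap44 and Cfap97d2 were above background on neither control array left. Members called lower numbered 0 without phenobarbital replicate 2 or 3 or control replicate 1, 1 without phenobarbital replicate 1 or control replicate 2, and 2 without control replicate 3. Control replicate 1 shared a slide with all 3 phenobarbital arrays, while control replicates 2 and 3 lay on slides of their own. When slide was added as a blocking term, so that the contrast came from control replicate 1 only, 7 members were higher and 0 lower, against 2.4% and 0.644% of all names. Those 7 were Gmnc, Foxj1, Ccno, Rsph1, Meig1, Cfap52 and Cfap44, of which Meig1 and Cfap44 were not above background on control replicate 1 and Cfap44 had not passed before.

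**Figure D1:**
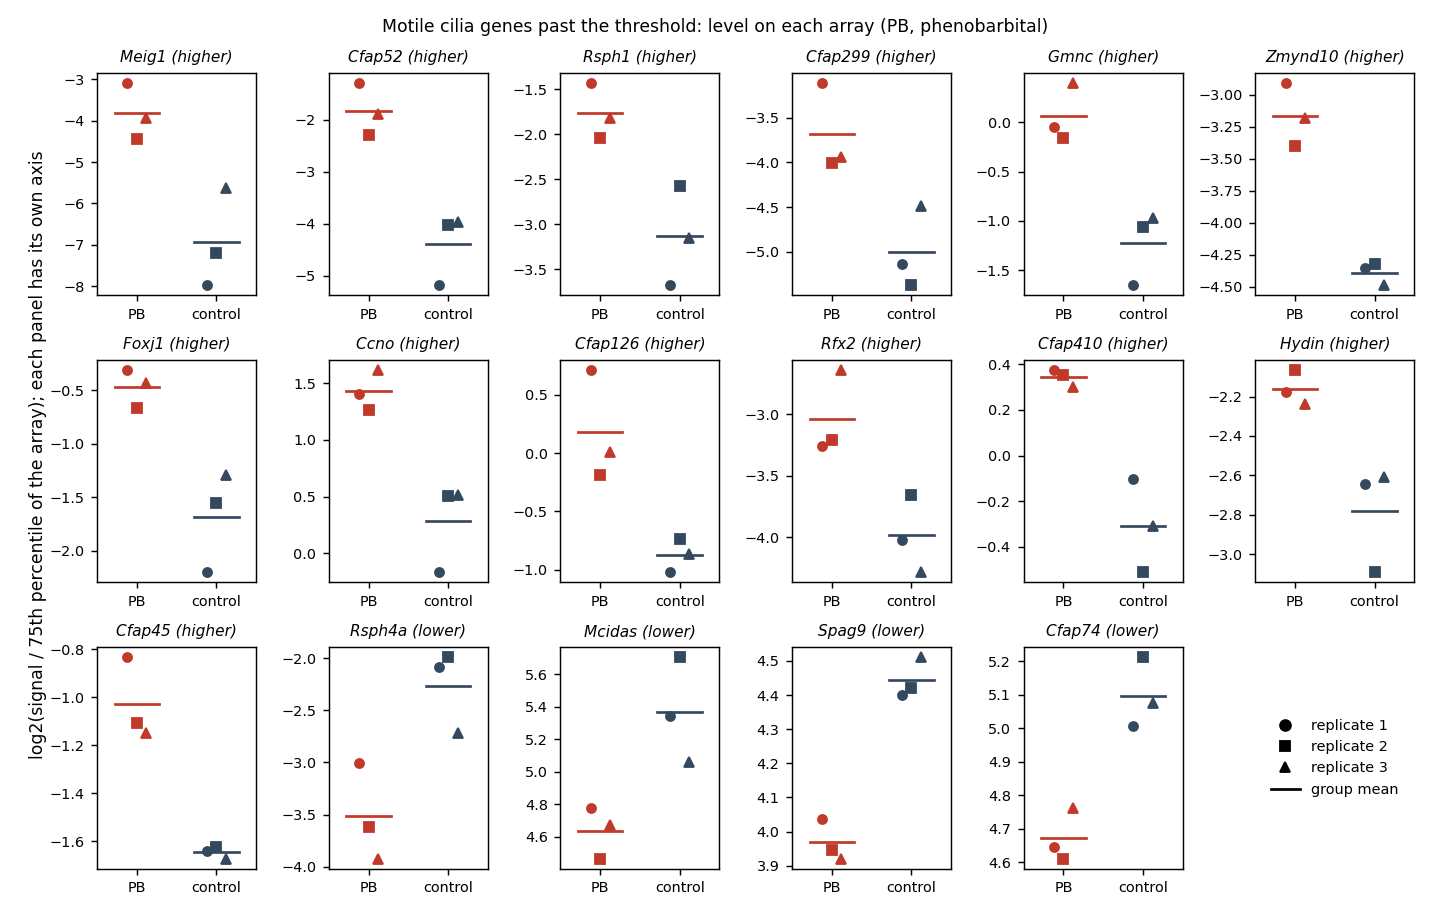
Level of each of the 17 motile cilia genes that passed the threshold, as log2 of the signal over the array's 75th percentile, on the 3 phenobarbital arrays (left in each panel) and the 3 control arrays (right), with the group mean as a line; each panel has its own axis. In the first 13 panels every phenobarbital array lies above every control array, and in the last 4 panels every phenobarbital array lies below.

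Of 7 regulators, all tested, Gmnc, Foxj1, Ccno and Rfx2 rose, Mcidas fell, and Rfx3 and Myb did not pass. Levels are given as log2 of the signal over the array's 75th percentile, for replicates 1 to 3, and fold changes are phenobarbital minus control on that scale. Gmnc, needed for cells to become multiciliated, had levels of -0.05, -0.16 and 0.40 with phenobarbital and of -1.65, -1.06 and -0.97 in controls. Every phenobarbital array lay above every control array. Gmnc was thus 2.45-fold higher, with a log2 fold change of 1.29 ± 0.23 (SE, n = 3 per group; limma, adjusted p = 0.0203).

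Foxj1, the forkhead factor that drives the genes of motile axonemes, had levels of -0.31, -0.67 and -0.43 with phenobarbital and of -2.20, -1.56 and -1.30 in controls. The groups were separate, with control replicate 1 the lowest array. Its log2 fold change was 1.21 ± 0.24 (limma, adjusted p = 0.0263), or 2.32-fold. Ccno, a cyclin-like protein needed for basal body amplification, had 1.41, 1.26 and 1.62 with phenobarbital and -0.16, 0.51 and 0.51 in controls. It rose by 1.14 ± 0.21 (adjusted p = 0.0222), or 2.21-fold.

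Rfx2, a factor that binds the X-box of ciliary genes, had -3.26, -3.21 and -2.64 with phenobarbital and -4.02, -3.66 and -4.28 in controls. It rose by 0.95 ± 0.23 (limma, adjusted p = 0.0399), but the log2 fold change was 0.37 with normexp background correction and 1.04 when each percentile was taken from probes detected on every array (the detected-probe percentile), and passed in neither case. Its relative Rfx3 had levels of -1.96, -2.05 and -1.92 with phenobarbital and of -2.10, -2.05 and -1.98 in controls. Its log2 fold change was 0.06 ± 0.10, with a 95% interval of -0.17 to 0.30, so that a rise as large as that of Rfx2 lay outside the interval. The other probes of Rfx3 had 0.12 and -0.67 and did not pass either. Myb, which acts in early multiciliated precursors and in dividing blood cells, had a log2 fold change of 0.15 ± 0.14.

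Mcidas fell. Its levels were 4.78, 4.46 and 4.67 with phenobarbital and 5.34, 5.70 and 5.06 in controls, so that the groups were separate in the other direction. The log2 fold change was -0.73 ± 0.19 (limma, adjusted p = 0.0444), which was -0.52 after quantile normalization and -0.64 with the detected-probe percentile, and did not pass in either case. Of the 18 alternatives, it did not pass in 11. It rests on 1 probe, whose sequence was not used here. The mean control level of 5.37 was the highest of the 7 regulators, far above the 0.29 of Ccno, the next. Whether this probe reports Mcidas alone was not tested.

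The promoters of members that moved are shown with the core motif GTTGCC of the RFX binding site in capitals, on either strand, since Rfx2 and Rfx3 are themselves members. RefSeq promoter sequences (GRCm38.p6, 250 bases before to 50 after the start of the gene) were matched by symbol for 59 of the 71 members, with 70 promoters. Capitals also mark complete X-boxes. The first 4 belong to members that rose and hold the motif, the fifth to Mcidas, which fell, and the last to Cfap298, which did not pass and holds a pair of complete X-boxes, which contain the core motif on both strands.
Ccno, chr13:112987552-112987851 (+ strand): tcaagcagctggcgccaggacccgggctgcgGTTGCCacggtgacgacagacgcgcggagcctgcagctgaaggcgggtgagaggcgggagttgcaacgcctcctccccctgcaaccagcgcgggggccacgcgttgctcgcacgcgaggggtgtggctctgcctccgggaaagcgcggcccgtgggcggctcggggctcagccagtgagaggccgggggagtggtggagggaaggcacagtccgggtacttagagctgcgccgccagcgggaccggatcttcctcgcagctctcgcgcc
Rfx2, chr17:56830959-56831258 (- strand): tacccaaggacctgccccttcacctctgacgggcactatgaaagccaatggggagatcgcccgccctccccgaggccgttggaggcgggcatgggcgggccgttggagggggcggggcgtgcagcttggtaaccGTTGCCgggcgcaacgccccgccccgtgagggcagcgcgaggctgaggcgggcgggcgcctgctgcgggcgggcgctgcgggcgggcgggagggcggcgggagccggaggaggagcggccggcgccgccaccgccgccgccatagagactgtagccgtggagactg
Zmynd10, chr9:107547054-107547353 (+ strand): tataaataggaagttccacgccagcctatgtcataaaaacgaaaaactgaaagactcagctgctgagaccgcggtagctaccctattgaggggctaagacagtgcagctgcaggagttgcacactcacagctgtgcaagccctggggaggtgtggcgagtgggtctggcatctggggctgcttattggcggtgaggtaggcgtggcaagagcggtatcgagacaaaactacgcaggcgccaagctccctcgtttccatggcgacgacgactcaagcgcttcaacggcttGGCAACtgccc
Hydin, chr8:110266727-110267026 (+ strand): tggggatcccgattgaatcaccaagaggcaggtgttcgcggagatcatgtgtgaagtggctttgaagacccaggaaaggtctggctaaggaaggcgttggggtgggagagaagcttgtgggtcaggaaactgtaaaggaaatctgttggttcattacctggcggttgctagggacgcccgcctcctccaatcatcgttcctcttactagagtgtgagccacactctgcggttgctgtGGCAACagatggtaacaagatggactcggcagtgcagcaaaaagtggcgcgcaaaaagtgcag
Mcidas, chr13:112993618-112993917 (+ strand): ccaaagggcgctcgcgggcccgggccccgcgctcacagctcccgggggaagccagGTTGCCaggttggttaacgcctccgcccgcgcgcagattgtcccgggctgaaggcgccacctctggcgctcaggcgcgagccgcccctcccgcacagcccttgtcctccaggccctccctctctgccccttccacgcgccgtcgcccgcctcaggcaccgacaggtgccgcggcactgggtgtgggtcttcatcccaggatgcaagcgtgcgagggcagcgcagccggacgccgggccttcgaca
Cfap298, chr16:90934800-90935099 (- strand): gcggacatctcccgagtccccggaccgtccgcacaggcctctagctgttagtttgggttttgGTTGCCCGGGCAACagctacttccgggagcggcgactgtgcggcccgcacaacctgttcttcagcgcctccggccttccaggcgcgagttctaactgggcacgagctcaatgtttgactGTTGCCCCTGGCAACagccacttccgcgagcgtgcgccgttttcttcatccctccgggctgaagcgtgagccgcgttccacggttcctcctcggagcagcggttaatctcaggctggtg

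The core motif GTTGCC, counted on both strands, occurred in 28 of the 70 member promoters (40.0%), against 4111 of all 32851 promoters in the table. Of the 10 genes that rose and had a promoter in the table, the 4 shown held it, in 4 of 15 promoters (26.7%). It began at -219 from the start of Ccno, at -116 in Rfx2, at -13 in Hydin and at -195 in Mcidas, and at 39 after the start of Zmynd10. The complete X-box (the RFX site, which overlaps the core motif) was found in 3 member promoters (4.29%, against 0.953% of all), those of Cfap298, Cfap20dc and Spag16, and in none of those that rose. The forkhead motif TGTTTAC was found in 4 (5.71%, against 3.65% of all), also in none that rose. A match describes the letters only, and members that did not pass the test held the core motif in 15 of 35 promoters (42.9%).

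**Figure D2:**
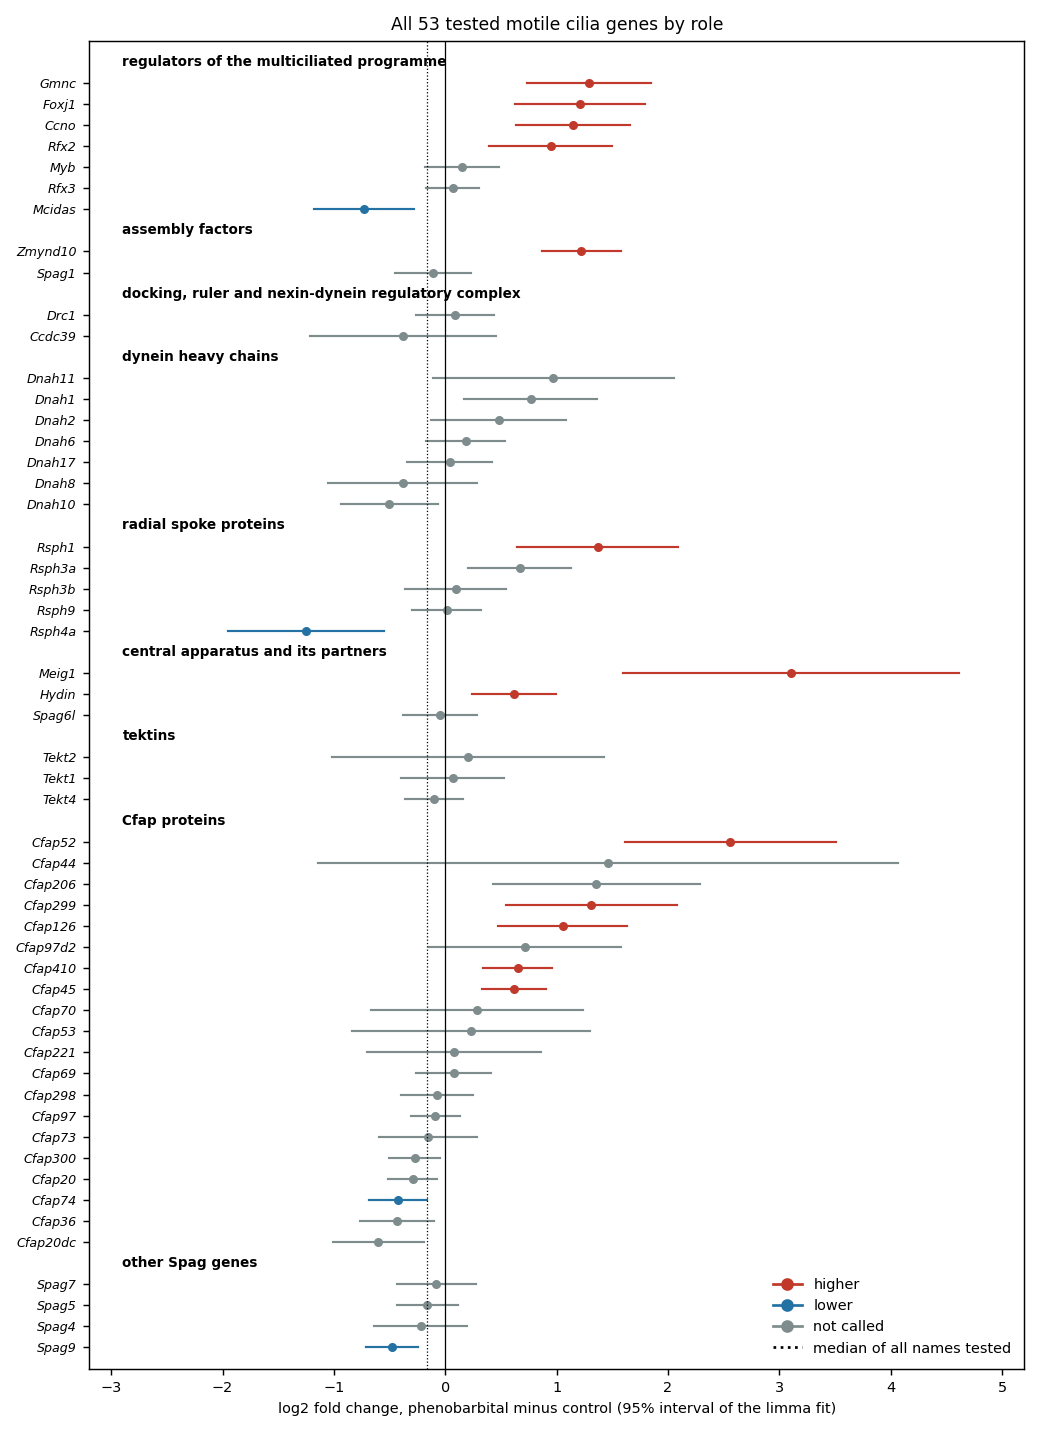
Log2 fold change (phenobarbital minus control) of all 53 tested members, grouped by role, with the 95% interval of the limma fit; colour gives the call and the dotted line the median of all names tested. 4 regulators stand clear to the right of 0 while Mcidas stands to the left, and the intervals of the tektins and of most dynein heavy chains include 0.

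Among proteins that build the dynein arms, Zmynd10, a cytoplasmic factor that preassembles them, rose and Spag1 did not pass. Zmynd10 had levels of -2.91, -3.40 and -3.19 with phenobarbital and of -4.36, -4.32 and -4.48 in controls. The control arrays lay within a narrow range and the groups were far apart. The log2 fold change was 1.22 ± 0.15 (limma, adjusted p = 0.0072), the smallest adjusted p among the members, and 0.46 with normexp, which still passed. Spag1, which acts in the same preassembly, had a log2 fold change of -0.11 ± 0.14, with a 95% interval of -0.45 to 0.23.

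None of the dynein motor genes passed. Of 15 genes for axonemal dynein heavy chains, the force-producing subunits, 9 had a probe and 7 were tested, and 0 passed with limma (at an unadjusted p below 0.05, 1 was higher and 1 lower). Dnah1, of the inner arm, had levels of -4.89, -4.65 and -4.26 with phenobarbital and of -5.43, -4.94 and -5.73 in controls. Its groups did not overlap, but the log2 fold change of 0.77 ± 0.25 did not pass (limma, adjusted p = 0.0780), except without control replicate 2 (0.98). Dnah11, an outer arm chain of airway and nodal cilia, had 0.97 ± 0.45 (adjusted p = 0.175), with groups that did not overlap, and was above background on 3 phenobarbital arrays but only 1 control array. Dnah10 had -0.50 ± 0.18. The other values were 0.48 ± 0.25 for Dnah2, 0.18 ± 0.15 for Dnah6, 0.04 ± 0.16 for Dnah17 and -0.38 ± 0.28 for Dnah8. Dnah5 and Dnah9, the main outer arm chains, were not well above background on any array.

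Of 7 radial spoke genes, 5 were tested, and Rsph1 rose while Rsph4a fell on its tested probe. Rsph1, a protein of the spoke head, had levels of -1.43, -2.05 and -1.82 with phenobarbital and of -3.67, -2.57 and -3.15 in controls. The log2 fold change was 1.37 ± 0.30 (limma, adjusted p = 0.0325), or 2.58-fold, and a second probe had 1.32 ± 0.45, which did not pass (adjusted p = 0.0926). Rsph4a, also of the spoke head, had probes that disagreed. On the brighter, tested probe the levels were -3.004, -3.62 and -3.92 with phenobarbital and -2.09, -1.99 and -2.71 in controls, a log2 fold change of -1.25 ± 0.29 (adjusted p = 0.0369).

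The dimmer Rsph4a probe was above background on all phenobarbital arrays and on no control array, and its difference, in the other direction, did not pass (limma, adjusted p = 0.0709 with every probe tested) and was at least 1.17-fold by the bound described below for Meig1. The mean of both Rsph4a probes had -0.27 and did not pass, so the direction for this gene is not settled. Rsph3a, of the spoke stalk, had 0.67 ± 0.19 with groups that did not overlap (adjusted p = 0.0596), and passed with normexp (0.66) and with the detected-probe percentile (0.76). Its other probe had -0.06. Its near-identical copy Rsph3b had 0.09 ± 0.19, and Rsph9 had 0.01 ± 0.13. Rsph14 and Rsph6a did not pass the filter.

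Of the genes of the central apparatus and its partners, Meig1 and Hydin rose, Spag6l did not pass, and Spag6, Spag16 and Spag17 were not well above background on any array. Meig1, a small protein that works with Spag16 in sperm, had levels of -3.10, -4.45 and -3.93 with phenobarbital and of -7.96, -7.20 and -5.63 in controls. It was the only member above background on every phenobarbital array and on no control array. It was at least 3.69-fold higher on the processed signals. This bound sets the phenobarbital mean against the dimmest signal called above background on each control array, or the probe's own if brighter. The fit without the bound passed (limma, adjusted p = 0.0270). With normexp the log2 fold change was 0.73, which passed but is smaller than the bound, so the bound depends on the background correction. Of 17 alternatives, Meig1 did not pass in 6. A second Meig1 probe, likewise above background on all phenobarbital arrays and no control array, was at least 1.91-fold higher by the same bound. Its fit without the bound had an adjusted p of 0.00237 (limma, every probe tested). Its control values, none above background, lay close together at -7.89, -8.02 and -7.92, which makes that p small. Both probes passed the filter through the phenobarbital arrays alone, so the filter itself favours a difference and these p-values add little.

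Hydin, the large protein of the central pair whose loss causes hydrocephalus in mice, had levels of -2.18, -2.07 and -2.24 with phenobarbital and of -2.64, -3.09 and -2.61 in controls. The log2 fold change was 0.62 ± 0.16 (limma, adjusted p = 0.0438), and Hydin was among the weaker calls, lost with normexp (0.35), after quantile normalization (0.64) and after scaling to the median (0.66). Spag6l, the central pair gene needed for beating in mice, had -0.05 ± 0.14.

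None of 3 tektins, filament proteins inside the doublets, passed with limma, and none did at an unadjusted p below 0.05. Tekt1 had 0.07 ± 0.19, Tekt2 had 0.20 ± 0.51 and Tekt4 had -0.10 ± 0.11. Ccdc39, which with Ccdc40 sets the spacing of the axonemal repeat, had -0.38 ± 0.35, and Drc1, of the nexin-dynein regulatory complex, had 0.09 ± 0.14. The 95% interval was -0.37 to 0.16 for Tekt4 and -0.26 to 0.43 for Drc1, while that of Tekt2 ran from -1.02 to 1.42. For Tekt2, control replicate 2 stood at -3.57 and the other control arrays at -1.97 and -1.58.

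Of 34 Cfap genes, a symbol shared by proteins of cilia and flagella with varied roles, 28 had a probe and 20 were tested, and 5 rose, 1 fell and 14 did not pass. Cfap52, a protein inside the doublet microtubules, had the widest difference among the members detected on all arrays. Its levels were -1.30, -2.29 and -1.89 with phenobarbital and -5.17, -4.03 and -3.97 in controls. Every phenobarbital array lay above every control array, and the log2 fold change was 2.56 ± 0.39 (limma, adjusted p = 0.0133), or 5.90-fold. With normexp it was 1.44, which still passed, so the size of the difference depends on the background correction. Cfap45, another protein inside the doublets, had -0.83, -1.11 and -1.15 with phenobarbital and -1.64, -1.62 and -1.67 in controls. It rose by 0.62 ± 0.12 (adjusted p = 0.0240).

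Cfap126, also called Flattop, which helps to dock and position basal bodies, had levels of 0.71, -0.19 and 0.01 with phenobarbital and of -1.02, -0.74 and -0.87 in controls. It rose by 1.06 ± 0.24 (limma, adjusted p = 0.0352), and its other probe rose by 1.07 ± 0.22. Cfap410, a protein of the ciliary base that is also found in cells without motile cilia, had 0.37, 0.35 and 0.30 with phenobarbital and -0.10, -0.51 and -0.31 in controls. It rose by 0.65 ± 0.13 (adjusted p = 0.0259), and its other probe had 0.98 ± 0.18, which passed too. Cfap299 had -3.12, -4.00 and -3.94 with phenobarbital and -5.14, -5.37 and -4.48 in controls. It rose by 1.31 ± 0.32 (adjusted p = 0.0404), but had 0.36 with normexp and 1.38 after quantile normalization and passed in neither case.

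Cfap74, a central pair protein, fell on its tested probe, with levels of 4.65, 4.61 and 4.76 with phenobarbital and of 5.01, 5.21 and 5.07 in controls. The log2 fold change was -0.42 ± 0.11 (limma, adjusted p = 0.0441), and -0.20 after quantile normalization, -0.38 after scaling to the median and -0.33 with the detected-probe percentile, where it did not pass. Its other tested probe had -0.93 ± 0.28 (adjusted p = 0.0669), and a further probe was not well above background on any array. Cfap206, a protein at the base of the spokes, had levels of -3.46, -4.36 and -3.97 with phenobarbital and of -5.99, -4.60 and -5.25 in controls. The groups did not overlap, and the log2 fold change of 1.36 ± 0.39 missed the threshold (adjusted p = 0.0584). It passed after scaling to the median (1.40), without control replicate 2 (1.69) and with the slide as a random block (1.58).

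Among the Cfap genes that did not pass were 3 that are known for cilia assembly or for left-right patterning, Cfap298, Cfap300 and Cfap53. They had log2 fold changes of -0.07 ± 0.13, -0.27 ± 0.10 and 0.23 ± 0.44. Cfap44, a tether of the dynein arms, had 1.46 ± 1.08, and its control arrays were split. Control replicate 2 stood at -3.88 and was above background, while the others stood at -7.97 and -7.80 and were not. Cfap97d2 had 0.72 ± 0.36 and was likewise above background on control replicate 2 alone among the controls. Both were called higher without that array, against control values not above background. Cfap20, Cfap36 and Cfap20dc had -0.29 ± 0.09, -0.44 ± 0.14 and -0.60 ± 0.17, with groups that did not overlap. These 3 passed as lower with normexp, as did Dnah10. With normexp 15.1% of the members were lower, against 18.7% of all names (10.5% in the main fit). The remaining Cfap genes, Cfap69, Cfap70, Cfap73, Cfap97 and Cfap221, had log2 fold changes between -0.16 and 0.28.

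The Spag symbols also take in proteins not known for motile cilia. Spag9, a scaffold of the JNK pathway and of motor proteins, fell, with levels of 4.04, 3.95 and 3.92 with phenobarbital and of 4.40, 4.42 and 4.51 in controls. The log2 fold change was -0.48 ± 0.10 (limma, adjusted p = 0.0278), and -0.30 after quantile normalization and -0.43 after scaling to the median, where it did not pass. Spag5, a mitotic spindle protein, Spag4 and Spag7 had -0.16 ± 0.11, -0.22 ± 0.18 and -0.08 ± 0.15. Spag8, Spag11a and Spag11b did not pass the filter.

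Detection on each array was set out for all 97 member probes. On the phenobarbital arrays 66, 68 and 71 probes were well above background (68.0%, 70.1% and 73.2%), against 59, 66 and 60 on the control arrays (60.8%, 68.0% and 61.9%). Over all non-control probes the shares were 63.1%, 64.0% and 68.0% with phenobarbital and 63.7%, 64.9% and 62.1% in controls. By gene, 54, 56 and 58 of the 71 members had a probe above background with phenobarbital, against 49, 56 and 51 in controls. Phenobarbital replicate 1 and control replicate 2 had the same number of member probes above background, so the groups were not separate in this count.

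Of the 71 genes, 47 were above background on all 6 arrays, 14 on some and 10 on none. The 10 were Cfap61, Cfap97d1, Cfap100, Dnah5, Dnah9, Spag6, Spag11a, Spag11b, Spag16 and Spag17. Among the 14, 9 were above background on more phenobarbital than control arrays and 2 on more control than phenobarbital arrays, namely Cfap157 and Cfap58. Cfap161 and Spag8 were above background on 2 phenobarbital arrays and no control array. Cfap65 was so on 1, while Cfap43, Rsph6a and Rsph14 had equal numbers in both groups. No probe was assigned through an accession for Ccdc40, for Dnah3, Dnah7a, Dnah7b, Dnah7c, Dnah12 and Dnah14, or for Cfap46, Cfap47, Cfap54, Cfap57, Cfap77 and Cfap99, and these were not analysed here.

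**Figure D3:**
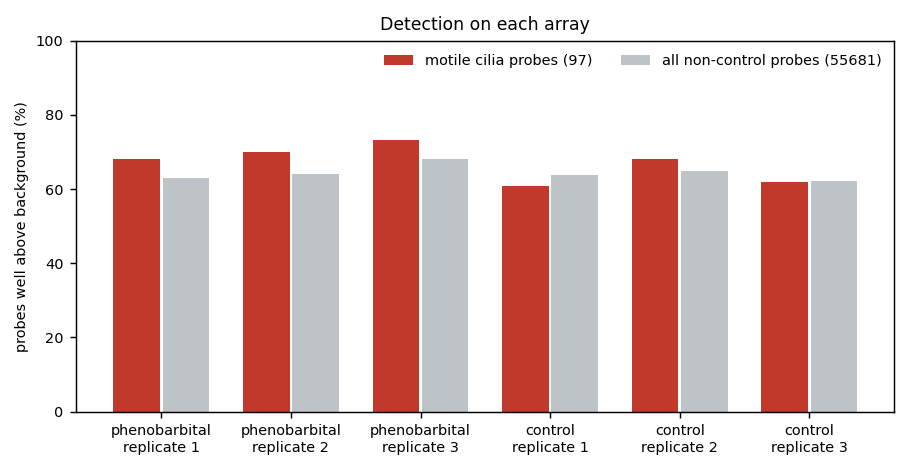
Share of probes well above background on each array, for the 97 motile cilia probes (red) and for all 55681 non-control probes (grey), phenobarbital arrays left and control arrays right. On the phenobarbital arrays the member share is 68.0% to 73.2% and above that of all probes. On control replicates 1 to 3 it is 60.8%, 68.0% and 61.9%, against 63.7%, 64.9% and 62.1% of all probes, so it is above on control replicate 2 as well.

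Genes of motile cilia that fall outside the membership rule were set beside the members. Of 63 further symbols, some of them older and newer names of the same gene, 50 had a probe and 40 were tested, and 10 rose, 1 fell and 29 did not pass (25% higher and 2.5% lower, against 6.24% and 10.5% of all names). Of the 40, 35 were above background on all arrays, and 8 of these rose and 1 fell, while the other 5 passed the filter through the phenobarbital arrays alone. Dynlrb2, a dynein light chain, rose by 2.08 ± 0.37, Dnaic2, an outer arm intermediate chain, by 1.40 ± 0.18, and Tppp3, a tubulin-binding protein, by 1.38 ± 0.10 (limma, adjusted p = 0.0196, 0.00829 and 0.00225). Nme5 rose by 1.07 ± 0.16 and Deup1, the scaffold on which multiciliated cells amplify centrioles, by 0.50 ± 0.11. Ccdc65, of the nexin-dynein regulatory complex, fell by 1.43 ± 0.27 (adjusted p = 0.0226). Deup1 and Ccdc65 were chosen after their values were seen.

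Genes of transport in the primary cilium, which nearly all embryonic cells carry, were set beside them. Of 42 tested, 7 rose, 2 fell and 33 did not pass. That is 16.7% higher and 4.76% lower, against 6.24% and 10.5% of all names, so a raised share of higher calls was not particular to the motile cilia members. Their median log2 fold change was -0.15, near the -0.16 of all names, against 0.09 for the motile cilia members. By smallest p, Ift172, Bbs2, Kif3b and Ift22 rose by 0.81 ± 0.11, 1.10 ± 0.18, 0.91 ± 0.15 and 0.74 ± 0.12. The 2 that fell were Bbs1, by 0.50 ± 0.11, and Bbs4, by 0.40 ± 0.09, and were chosen after their values were seen. The difference between the gene lists was not tested.

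Markers of the choroid plexus, whose epithelium bears motile cilia, moved with the members. Of 12 tested markers 9 rose, 0 fell and 3 (Aqp1, Enpp2 and Lmx1a) did not pass (limma). That is 75% higher, against 6.24% of all names. With the 4 markers not detected in controls set at their bounds, the median log2 fold change was 1.82. Of the 8 markers above background on all arrays, 5 rose. The linear signal of all 12 tested markers was also summed, in units of the array's 75th percentile. The sum was 26.4, 14.3 and 22.2 on the phenobarbital arrays and 4.28, 7.78 and 6.85 on the control arrays. On the control arrays Calml4, Htr2c, Kcne2 and Trpm3 were never well above background, while Ttr, Folr1, Clic6, Otx2 and Sostdc1 were above it on all. Phenobarbital replicate 2 had the lowest sum of its group, and it was also the lowest of the group for 9 of the 13 members that rose. Control replicate 1 had the lowest sum among controls and was the lowest control for 7 of the 13. Control replicate 2 had the highest sum among controls. Among the 13 members, though, control replicate 3 was the highest control for 7 and control replicate 2 for 5. The sum of control replicate 2 leans on Lmx1a, which did not pass. Lmx1a had a level of 1.82 there, against 0.37 and 0.44 on control replicates 1 and 3. Summed signals weigh the brightest markers most. Ttr, for one, had levels of 3.98, 2.66 and 3.14 with phenobarbital and of -2.35, -3.46 and 0.73 in controls. The part of choroid plexus cells in the members' rise was not tested, and in bulk samples more cells of a type and more RNA per cell cannot be told apart.

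Markers of other cell types were mostly lower or did not pass. Of 7 red blood cell markers 5 fell (71.4%), and of 8 markers of meninges and mural cells 6 fell (75%). Of 6 endothelial markers 3 fell (50%) and of 7 neuronal markers 4 fell (57.1%). None of these was called higher, though 1 endothelial marker had groups that did not overlap, with phenobarbital higher. Over all names 10.5% were lower and 6.24% higher. Of the 8 radial glia markers Emx2 rose, Vim fell and 6 did not pass. The summed signal of the radial glia markers was 267 to 300 with phenobarbital and 333 to 357 in controls. This sum leans on Vim, the brightest of the 8. Vim had levels of 7.48, 7.56 and 7.45 with phenobarbital and of 7.83, 7.98 and 8.00 in controls. The median log2 fold change of the 8 markers was -0.10, against -0.16 over all names, so the sum does not speak for the markers as a set. That of the red blood cell markers was 606 to 655 with phenobarbital and 937 to 1369 in controls. The part of these shifts in the members' values was not tested.

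**Figure D4:**
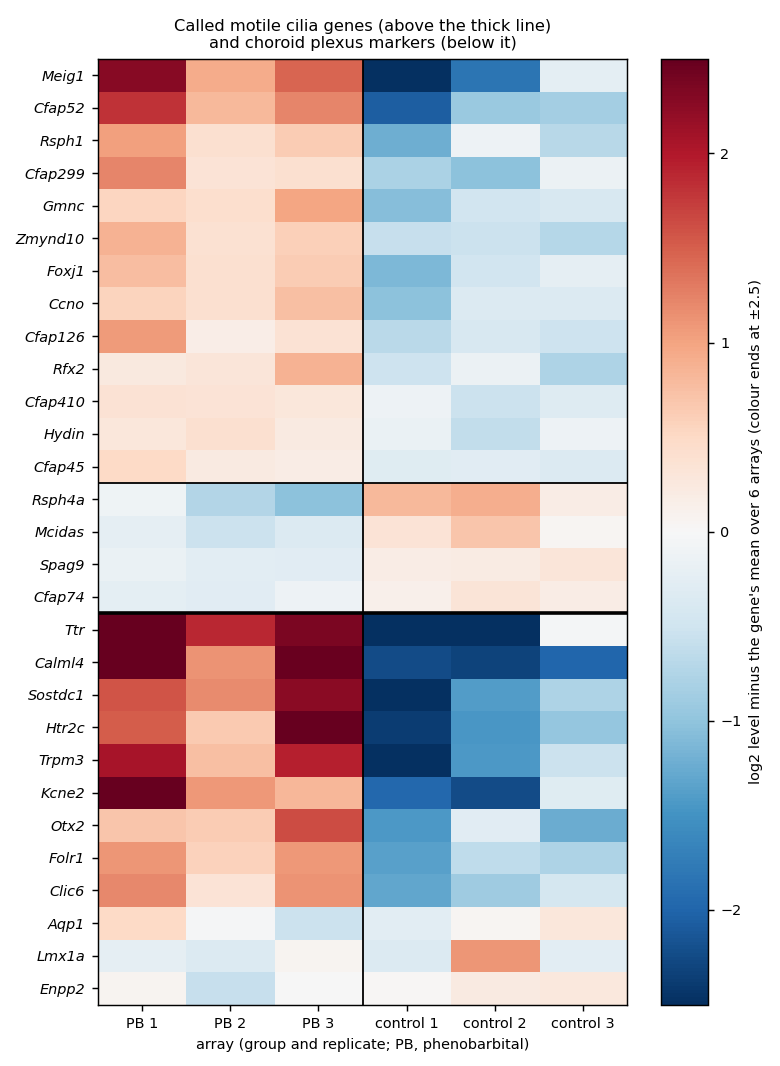
Levels of the 17 called motile cilia genes (above the thick line, with the 4 lower ones below the thin line) and of 12 choroid plexus markers (below it), as log2 level minus the gene's mean over the 6 arrays, phenobarbital arrays left and control arrays right. The 13 members that rose and 9 of the 12 markers are red on all phenobarbital arrays, and control replicate 1 is the lowest control for 7 of the 13.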

How the data were processed

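RNA from 3 phenobarbital and 3 control samples (0.2 µg each, Cy3) was hybridised to single-colour Agilent arrays. The deposited intensity values are processed signals with background subtracted, written by Agilent Feature Extraction 10.7.3.1, per the file headers (10.7 per the submitters' processing notes). The authors' deposited value table holds log2 values and was an alternative. It was compared through differences from control replicate 1, with outlier spots kept and each array's median discrepancy taken out. So compared, 99% of values lay within 1.9e-06 of those here. This comparison does not cover the scaling of each array. The median log2 fold change over all names was -0.158 with that table, against -0.162 in the main fit.

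Outlier spots (98 to 198 per array) were set missing, log2 signals were taken minus the array's 75th percentile over non-control spots, and spots of a probe were averaged. The percentiles were 1802 to 1853 with phenobarbital and 1116 to 1286 in controls, and 62.8% to 68.7% of spots were well above background, with 0 saturated. The number of arrays limits the precision. A probe was kept if above background on all 3 arrays of a group (in at least 0.5 of its spots) with at least 2 values per group, and the brightest passing probe stood for a gene. The groups were compared over 25304 names with limma 3.58.1 in R 4.3.3 (lmFit and eBayes, Benjamini-Hochberg, threshold 0.05), after a check on simulated data. Accessions were named through RefSeq (GRCm38.p6); the files' own annotation uses another build and no coordinates of it are given.

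Alternatives were normexp (on median spot and background signals), quantile, median and detected-probe scaling, other filters and probe rules, the authors' table, slide and replicate blocks, and leaving out each array. The members, gene lists and tests were chosen with earlier results of these data known. Named were all members past the threshold or detected in 1 group alone, the regulators, the brightest members of each role, others to account for the members, and, of other lists, up to 4 genes by smallest p. 1 gene of the other lists is not reported here by name.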

Additional observations from a re-analysis of the deposited data

How the results depend on the processing

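Of 4234 names called, 2470 were called after scaling to the median, 2716 with the percentile over probes above background on all arrays, 1486 with no filter on dim probes, 771 with the slide as a block and 295 with the replicate block. Members called higher (13) numbered 4 with no filter and 7 with the slide as a block, and 11 to 13 under the other alternatives that kept all arrays, apart from the replicate block. Members called lower (4) numbered 8 with normexp, 0 after quantile normalization, 2 after scaling to the median, 1 with the percentile over detected probes, 1 with no filter, 0 with the slide as a block and 2 with the slide as a random block. The share of lower calls over all names moved too, from 10.5% (members 7.55%). It was 18.7% with normexp (members 15.1%), 5.24% after quantile normalization (members 0%) and 4.06% after scaling to the median (members 3.77%). It was 4.36% with the percentile over detected probes (members 1.89%) and 6.99% with the slide as a random block (members 3.77%). With no filter it was 1.59%, against 1.89% of members. Higher calls there were 2.41% of all names, against 7.55% of members. Leaving out 1 array at a time gave 877 to 4462 names called, 2 to 16 members higher (3.77% to 30.2%, against 2.53% to 7.42% of all names) and 0 to 2 lower (0% to 3.77%, against 0.869% to 10.2%). The lowest count, 2 members, came without each phenobarbital array and is near the share of all names there. The share of calls that were higher was 37.3%, against 24.4% with normexp, 54.6% after quantile normalization, 58.4% after scaling to the median and 59.4% with the percentile over detected probes. The median over all names was -0.16 and moved to -0.06 after quantile normalization. On the probe or mean of probes used for the gene, none of the 17 called members changed sign in the 18 alternatives (17 for Meig1), and Cfap52 and Zmynd10 passed in 16. With every probe tested on its own, the dimmer Rsph4a probe had the opposite sign. The cause of these differences was not tested.

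With the replicate block 0 members were called higher and 0 lower, against 1.07% and 0.0988% of all names. With shares that small over all names, the count of 0 says little about the members. Same-numbered arrays had correlations of 0.078, -0.16 and -0.347 between their deviations from the group means, and not every array correlated best with its own number. With so few arrays per group, the deviations within a group depend on each other. The correlations therefore cannot tell whether same-numbered samples were paired.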
